A study of Mus musculus with 36 samples.

Results

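RNA-seq of the unmyelinated optic nerve (UON) was compared directly between optic nerve crush and a microbead model of glaucoma, without passing through a shared naïve control. The comparison holds 8 of the 36 libraries of the series, 4 for crush and 4 for glaucoma. Each model was collected at 3 D and at 2 W, with 1 female and 1 male library per group. Crush was made once with self-closing forceps on the exposed nerve of one eye, and glaucoma was produced by microbeads injected into the anterior chamber of one eye to raise intraocular pressure (IOP). All mice were C57BL/6 of 2 to 4 months, and each library was RNA of 2 mice of one sex, extracted singly and then pooled in equal amounts. Each model is thus represented by 8 mice, but the spread that the tests use is that between pools. The series as a whole covered UON, the myelinated optic nerve behind it (MON) and retina in naïve, crush and glaucoma mice, and 2 naïve UON libraries are given below as a reference level only.

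The axons of retinal ganglion cells leave the eye through the UON, where they are bare and run between columns of astrocytes. Oligodendrocytes wrap them only further back. A crush severs the axons together at one point, and the stretch beyond it degenerates while the stretch toward the eye is lost as ganglion cells die. Raised IOP acts at the nerve head itself, and axons are lost there gradually and in part. Microglia and invading macrophages clear debris, and astrocytes and other glia can re-enter the cell cycle.

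The libraries held 16158723 to 58461609 counts. The 2 shallowest were the male glaucoma 2 W pool, at 16158723, and the female glaucoma 3 D pool, at 19513875. The shallowest crush pool, the male one at 3 D, held 28479283. Levels are given as CPM, counts scaled to the size of the library by trimmed mean of M-values (TMM). Differences are log2 fold changes of crush minus glaucoma from edgeR's quasi-likelihood test with sex as a term, and a gene was called at a Benjamini-Hochberg adjusted p below 0.05 with a log2 fold change beyond 1. Gfap, the intermediate filament of astrocytes, was abundant in all 8 libraries at 10360 to 14060 CPM. Myelin RNA was also present, with 17 myelin and oligodendrocyte genes summing to 3502 to 43940 CPM, the lowest in the male crush 2 W pool. That pool stood apart from the others, at a mean distance of 292 on the log2 CPM scale against 207 to 251 for the other 7, and 4011 of 22474 tested genes were at 0 in it. The sex labels matched the sex-linked RNAs in 10 of 10 UON libraries. The nearest neighbour was a library of the same model for 3 of 8. Because the tissue is bulk, fewer cells of a type and less RNA per cell cannot be told apart.

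Over both time points together, crush and glaucoma UON could hardly be separated at the level of single genes. One gene of 22474 was called lower in crush (0.00445%) and 0 were called higher (0%). The called gene was mt-Nd5, a mitochondrial subunit of complex I. It was at 0 in all 4 crush pools and in both female glaucoma pools, and at 1638 and 2762 CPM in the male glaucoma pools. It was also at 0 in the male naïve pool and at 1904 CPM in the female one, so its level switched within groups. The edgeR test gave 800 genes at an unadjusted p below 0.05, 371 higher in crush (1.65%) and 429 lower (1.91%), where 5% of all genes tested would be 1124. DESeq2 called 16 genes, of which 9 were higher (0.0565% of those it tested) and 7 lower in crush (0.0439%). At 3 D, edgeR called 0 genes in either direction (0%), with 147 at an unadjusted p below 0.05, and DESeq2 called 20, of which 10 were higher and 10 lower (0.0445% each). At 2 W, edgeR called 7 genes, all lower in crush (0.0311%), and 0 higher (0%). DESeq2 called 247 at this time, 96 higher (0.517% of those it tested) and 151 lower (0.814%), and 6 of edgeR's 7 were among them. At an unadjusted p below 0.05, 783 genes were lower in crush at 2 W (3.48%).

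Kif5a, Rph3a, Nefh, Rims1, Vwa5b2 and Nrsn1 were called lower in the crushed nerve at 2 W, and mt-Nd5 was the other called gene. Apart from Vwa5b2, they encode proteins known from axons and synapses, and Nefh alone of the 6 belongs to the list of axonal genes used below. Each of the 6 was present at 3 D after crush. The 2 crush 2 W pools stood below every other library, naïve included, for each of the 6. The calls rest on the settings of the test. With a minimum count of 50 or without the sex term, Rph3a alone was called, and the other 5 had adjusted p-values of 0.113 to 0.136 and of 0.051 to 0.0536 by edgeR, with nearly the same log2 fold changes. Rims1 was also not called by limma (adjusted p = 0.145) or by edgeR without the female or the male glaucoma 3 D pool (0.0538 and 0.0672), nor Nrsn1 without the male crush 2 W pool (0.0779).

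Kif5a, the neuronal heavy chain of the kinesin that carries cargo away from the cell body, was the most abundant of them. Its gene lies at chr10:127225696-127263348 on the minus strand (GRCm38). At 2 W it stood at 101.4 CPM in the female and 45.81 CPM in the male crush pool, against 10130 and 9157 CPM in the female and male glaucoma pools. At 3 D the crush pools still held 8490 and 3884 CPM, beside 6457 and 23710 CPM in glaucoma, and the naïve pools held 13850 and 17410 CPM. The 2 W difference was a log2 fold change of -7.07 ± 0.87 (SE), a 131-fold lower mean, with an adjusted p of 0.0488. At 3 D it was -1.38 ± 0.71 with an adjusted p of 1 (edgeR).

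Rph3a encodes rabphilin 3A, a synaptic vesicle protein that binds Rab3. Its RNA stood at 1.80 and 1.20 CPM in the crush 2 W pools and at 331.4 and 418.2 CPM in the glaucoma 2 W pools. At 3 D it was 316.1 and 201.3 CPM after crush and 252.5 and 651.9 CPM in glaucoma, so those groups overlapped. The 2 W log2 fold change was -7.94 ± 0.67 with an adjusted p of 0.00961, the lowest of all genes tested at that time by edgeR. Rph3a lies at chr5:120940499-121010092.

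Nefh, the heavy neurofilament subunit that fills large axons (chr11:4938754-4948064), was at 0.64 and 0.07 CPM in crush 2 W and at 81.5 and 116.8 CPM in glaucoma 2 W. Its 3 D values were 122.7 and 51.6 CPM after crush and 55.1 and 151 CPM in glaucoma. The 2 W difference was -8.23 ± 1.04 on the log2 scale (adjusted p = 0.0488, edgeR). Rims1, a scaffold of the presynaptic active zone (chr1:22286251-22805994), was at 0.42 and 0.04 CPM in crush 2 W against 19.5 and 23.1 CPM in glaucoma, a difference of -6.69 ± 0.84 with an adjusted p of 0.0488 by edgeR. Vwa5b2 was at 2.56 and 1.51 CPM against 75.3 and 57.2 CPM, and Nrsn1, which encodes the neuronal vesicle protein neurensin 1, was at 6.59 and 7.39 CPM against 90.2 and 74.3 CPM. The crush and glaucoma pools did not overlap at 2 W for any of these 4 genes. The crush pools lay below for 19.9% of all genes, and these 4 were taken because they were called lower. Vwa5b2 overlaps genes on both strands, Rims1 overlaps a gene on the opposite strand and Rph3a overlaps a gene on its own strand.

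**Figure D1:**
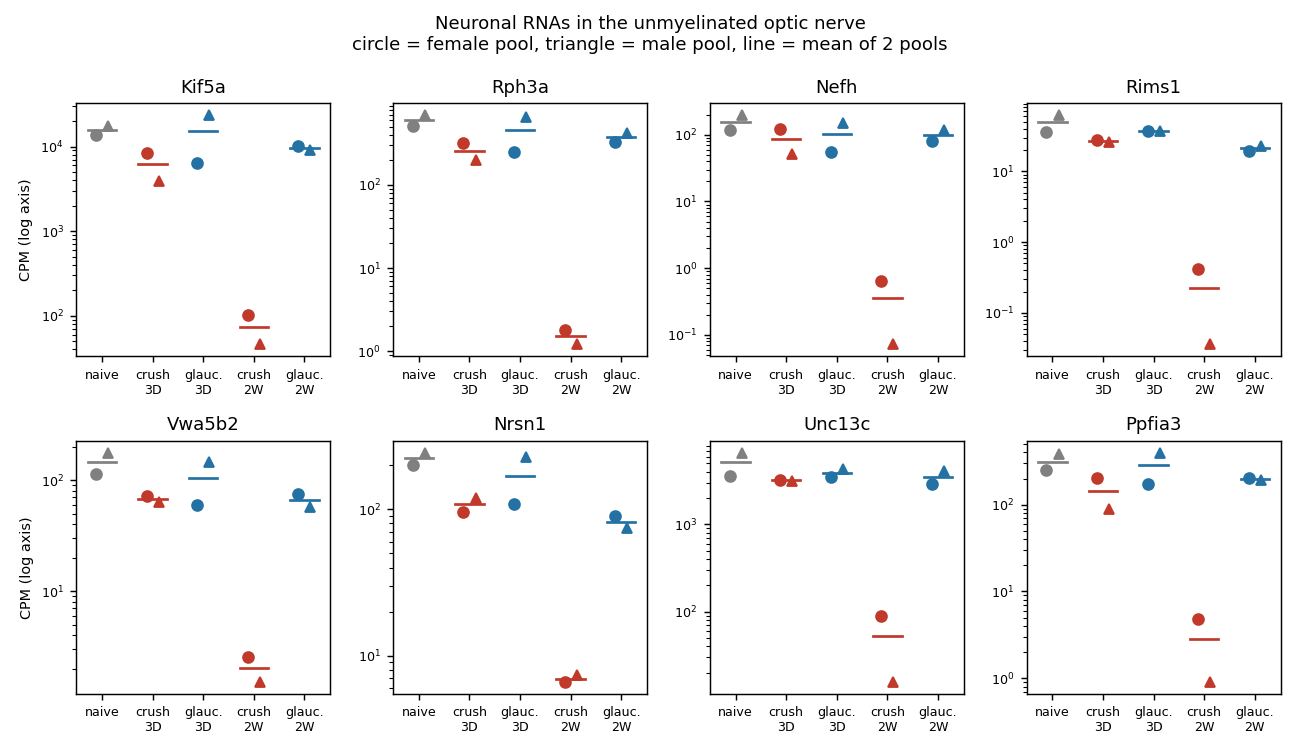
CPM on a log axis of 8 RNAs, all but Vwa5b2 known from neurons, in each UON library, with circles for female pools, triangles for male pools and a line at the mean of the 2 pools of a group. The crush 2 W pools lie below all other libraries in each panel, Kif5a at 101.4 and 45.81 CPM beside 10130 and 9157 CPM in glaucoma at 2 W.

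Of the genes that just missed the threshold, Unc13c and Ppfia3, which encode a vesicle priming factor and a liprin of the active zone, Mapk8ip2, a scaffold of the JNK pathway, and Tmem151b each had an adjusted p of 0.052 by edgeR. Unc13c was at 89.3 and 15.5 CPM in crush 2 W and 2918 and 4136 CPM in glaucoma 2 W, after 3214 and 3174 CPM at 3 D of crush. Tmem151b had no count in either crush 2 W pool, which allows up to 0.0599 and 0.0539 CPM, and 4.84 and 2.99 CPM in glaucoma. These 4 genes were picked for mention after their values were seen. Ppfia3 and Tmem151b each overlap a gene on the opposite strand and Unc13c overlaps others on its own strand. No strand setting was given for the counting. Other genes named in this report also overlap a gene on the opposite strand, among them Nefl, Ina, Gpr34, Junb, Ptx3, Kif22, Mki67, Kcnk2 and Sema5a.

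Not every RNA of ganglion cells was lower at 2 W. Of 18 axonal and ganglion cell genes, 1 was called lower (Nefh), where 0.0311% of all genes were. At an unadjusted p below 0.05, 6 were lower and 2 higher (3.48% and 3.07% of all genes). The median log2 fold change at 2 W was -0.41, beside -0.08 over all genes. The median ran from -0.76 without the male crush 2 W pool to -0.31 without the female glaucoma 2 W pool. The light neurofilament Nefl was at 8.19 and 3.22 CPM in crush 2 W against 69.9 and 35.9 CPM in glaucoma (-3.23 ± 0.61, adjusted p = 0.32, edgeR), and the neurofilament-like internexin Ina was at 0.96 and 0.56 against 7.36 and 10.6 CPM. Uchl1, a ubiquitin hydrolase of neurons, was at 248.5 and 241.8 CPM against 175.2 and 188.8 CPM (0.43 ± 0.36). Tubb3, the neuronal beta tubulin, pointed the other way at 65.3 and 62.2 CPM against 15.98 and 20.61 CPM (1.79 ± 0.60, adjusted p = 0.749, edgeR). Rbpms, a ganglion cell marker, was between 8.95 and 41.9 CPM in all 8 libraries and the groups overlapped.

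Retinal RNA was also lower in the crush pools at 2 W. The 16 tested genes of photoreceptors and other retinal neurons had a median log2 fold change of -3.23, with 15 of 16 below 0, 8 of them at an unadjusted p below 0.05 (3.48% of all genes were lower at that level). Without the male glaucoma 2 W pool the median was -0.99 and 1 of 17 reached that level. The summed level of the 18 genes listed was 53.2 and 31.9 CPM in the crush 2 W pools, 117.6 and 436.7 CPM in glaucoma 2 W, and 64.6 to 150.3 CPM at 3 D. The crush 2 W sums were the lowest of the 8 libraries. The retinal sum differed several times over between the glaucoma 2 W pools, and Kif5a and Rph3a were nearly level between them. The part of retinal RNA in the neuronal difference was not tested.

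In the MON of the same mice, the same RNAs were also lower after crush by DESeq2. At 2 W, MON Kif5a was at 90.1 and 99.2 CPM after crush and 5050 and 8505 CPM in glaucoma, and Rph3a at 0.63 and 0.73 CPM against 65.8 and 172.9 CPM. Unc13c was at 4.01 and 4.43 CPM against 388.3 and 1052 CPM. The groups did not overlap for any of these 3, and the share of all MON genes without overlap was not counted. MON fits at 3 D and at 2 W were added after the data had been seen. At 3 D, edgeR called 1 of 22302 genes, lower in crush, and DESeq2 called 430, of which 283 were higher and 147 lower. The 2 W fit called 0 genes with edgeR (0% in each direction, with 1632 at an unadjusted p below 0.05), the smallest adjusted p being 0.0517. DESeq2 called 305 genes at 2 W, of which 152 were higher (0.709%) and 153 lower in crush (0.714%). DESeq2 called 5 of the 7 UON genes in MON at 2 W, and the edgeR values there were -6.14 ± 0.61 for Kif5a and -7.40 ± 0.75 for Rph3a, each with an adjusted p of 0.08. Rims1 was less distinct in MON, at 1.43 and 0.68 CPM against 2.64 and 2.68 CPM.

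Over both times, the crush minus glaucoma contrast was compared between UON and MON. Without the pairing of tissues from the same mice, the difference of the contrasts gave 0 calls by edgeR in either direction (0%), with 1054 genes at an unadjusted p below 0.05 (1.86% toward crush in UON and 2.3% toward glaucoma). With the mice as a replicate block, edgeR called 1 gene, toward crush in UON. The DESeq2 fit left some genes unconverged and gives no count here. In MON alone edgeR called 0 genes (0%), with 2963 at an unadjusted p below 0.05 (6.89% higher and 6.4% lower), and DESeq2 called 707, of which 503 were higher in crush (3.18%) and 204 lower (1.29%).

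Microglial genes of the disease-associated state stood on the higher side at 2 W. These genes are known to be raised when microglia take up lipid and debris through Trem2 and Tyrobp. Of 19 measured, 17 had a positive log2 fold change, 13 were higher and 0 lower at an unadjusted p below 0.05 (3.07% of all genes were higher at that level), and in 15 both crush pools lay above both glaucoma pools, against 17% of all genes. The median was 1.71 on the log2 scale, and 1.27 to 2.15 with either crush 2 W pool left out. None passed edgeR's adjusted threshold, and DESeq2 called 8 of the 19 higher, where it called 0.517% of the genes it tested higher. At 3 D the median was -0.04, and 2 of 19 were higher and 0 lower at an unadjusted p below 0.05 (0.343% and 0.311% of all genes). In MON over both times, 14 of the 19 were higher at that level (6.89% of all genes), with a median of 1.49.

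Itgax, the integrin alpha chain CD11c, was at 46.4 and 21.4 CPM in the female and male crush 2 W pools and at 3.26 and 3.66 CPM in glaucoma 2 W. Every other UON library, naïve included, was between 1.81 and 4.33 CPM. Its 2 W difference was 3.25 ± 0.60 on the log2 scale, with an adjusted p of 0.277 by edgeR and 3.58e-06 by DESeq2. The lectin Clec7a, the receptor that senses beta-glucan, was at 43.4 and 26.6 CPM against 6.93 and 3.35 CPM. Lgals3, which encodes galectin 3 and marks phagocytic cells, was at 1427 and 1378 CPM against 444.1 and 464.8 CPM. The protease inhibitor Cst7 was at 179.1 CPM in the female and 22.9 CPM in the male crush pool, so its size depended on the pool, against 9.79 and 10.7 CPM in glaucoma. Tyrobp, the signalling adaptor of Trem2, was at 538.1 and 543.2 CPM against 100.9 and 185.5 CPM.

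Apoe, the lipid carrier, belonged to the same list but did not separate the models. Apoe was at 22460 CPM in the male crush and 24970 CPM in the male glaucoma 2 W pool, and at 6429 and 3889 CPM in the female pools. Both male pools stood above both female pools. The summed level of the whole list was 22050 and 36410 CPM for crush and 10030 and 30930 CPM for glaucoma at 2 W, so the sums overlapped.

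Homeostatic microglial genes had smaller differences. Of 14, 11 lay above 0 at 2 W with a median of 0.70, and 4 were higher at an unadjusted p below 0.05 (3.07% of all genes). The median was 0.06 without the female crush 2 W pool. The surface receptor Gpr34 was at 39.8 and 53.5 CPM in crush against 12.2 and 12.8 CPM in glaucoma (1.90 ± 0.41, adjusted p = 0.427, edgeR), and the Fc receptor-like Fcrls at 276.5 and 156.6 CPM against 57.3 and 50.3 CPM. Tmem119 and Csf1r overlapped between the models, as did Cx3cr1. Genes of infiltrating and border macrophages had a median of 0.54, with 0 of 17 at an unadjusted p below 0.05.

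Among chemokines and cytokines, 18 of 22 were above 0 at 2 W with a median of 1.95, and 7 were higher at an unadjusted p below 0.05, against 3.07% of all genes. Without the male crush 2 W pool the median was 1.17, and 4 reached that level. Ccl4, a chemokine made by macrophages and microglia, was at 34.3 and 19.7 CPM after crush and 3.21 and 1.71 CPM in glaucoma (3.46 ± 0.58, adjusted p = 0.164 by edgeR and 2.78e-08 by DESeq2). Ccl2, which draws monocytes, was at 13.3 and 45.8 CPM against 3.03 and 2.81 CPM, and the neutrophil attractant Cxcl1 at 4.08 and 28.5 CPM against 0.71 and 0.73 CPM. The male crush pool was the higher one for these last genes and the lower one for Ccl4. The cytokine Il6 was at 4.17 CPM in the male crush 2 W pool and under 1 CPM in the other 7.

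RNA of red blood cells leaned higher in the crushed nerve at 2 W. Of 10 blood genes, 9 lay above 0 and 5 were higher at an unadjusted p below 0.05, against 3.07% of all genes, with a median log2 fold change of 3.83. Hbb-bs, an adult beta globin, was at 1237 and 739.2 CPM in crush and at 24.8 and 61.1 CPM in glaucoma, a difference of 4.63 ± 0.71 with an adjusted p of 0.128 by edgeR and 3.38e-10 by DESeq2. Hba-a1, an alpha globin, was at 1429 and 1255 CPM against 58.1 and 154.3 CPM. The summed list was 4561 and 3531 CPM in the crush 2 W pools and 158.1 to 1615 CPM in the other 6. In MON over both times, 5 of the 10 were also higher at an unadjusted p below 0.05 (6.89% of all genes), with a median of 1.43. The globin genes are near-identical pairs between which reads can be split. The part of blood-borne cells in the microglial and chemokine values was not tested. The neutrophil list summed to 51.2 and 21.4 CPM in the crush 2 W pools and 15.1 to 37.1 CPM in the other 6, and the lymphocyte list to 19.4 and 15.01 CPM against 3.76 to 8.74 CPM.

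**Figure D2:**
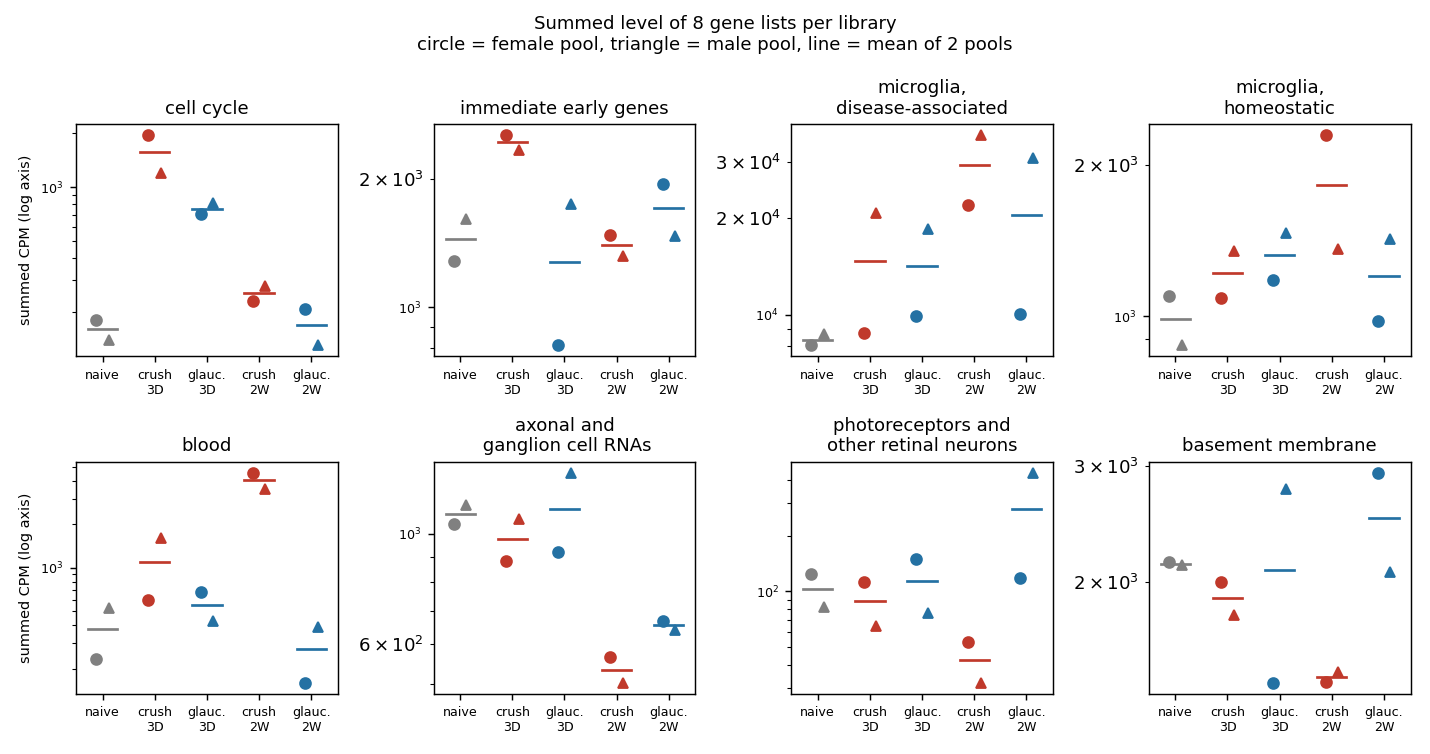
Summed CPM on log axes of 8 gene lists in each UON library, with circles for female pools, triangles for male pools and a line at the mean of each group. The cell cycle sum peaks in the crush 3 D pools at 1958 and 1198 CPM, and the blood sum in the crush 2 W pools at 4561 and 3531 CPM.

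At 3 D, genes of the cell cycle leaned toward crush. All 32 measured had a positive log2 fold change, with a median of 1.02 beside -0.01 over all genes, and in 22 both crush pools lay above both glaucoma pools, against 12.4% of all genes. edgeR and DESeq2 each called 0 of the 32, and 1, Cenpa, was higher at an unadjusted p below 0.05 (0.343% of all genes were higher and 0.311% lower at that level). Cks2, Cdk1, Ccnb1, Ccnb2, Top2a, Cdkn3, Knstrn, Ccnf, Bub1 and Cenpa are genes that the study named from these same libraries, so the count is not independent evidence of the direction. The summed level was 1958 and 1198 CPM in the crush pools, 702.3 and 811.2 CPM in glaucoma and 180.3 and 137.9 CPM in naïve nerve, so both models stood above naïve and crush above glaucoma. At 2 W the sums had come down to 230.6 and 279.1 CPM against 206.9 and 129.4 CPM, and 18 of 32 members were above 0. In MON over both times, all 32 were higher in crush at an unadjusted p below 0.05 (6.89% of all genes), with a median of 2.08.

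Cenpa, the histone H3 variant of centromeres, was at 70.6 and 52.9 CPM in crush and 25.3 and 24.6 CPM in glaucoma at 3 D (1.3 ± 0.4, adjusted p = 1, edgeR). Top2a, the topoisomerase of dividing cells, was at 200.3 and 59.9 CPM against 53.9 and 62.4 CPM, so that the male crush pool fell inside the glaucoma range. Mki67, the proliferation marker Ki-67, was at 92.7 and 43.3 CPM against 31.1 and 29.6 CPM. The replication helicase Mcm6 was at 45.5 and 47.9 CPM against 34.7 and 37.4 CPM, and Pcna, the sliding clamp of replication, overlapped between the models. Outside the list, the mitotic kinesin Kif22 was higher in crush at both times, at 27.8 and 21.7 CPM against 9.23 and 11.6 CPM at 3 D and 5.23 and 4.75 CPM against 0.80 and 1.46 CPM at 2 W (1.71 ± 0.39 over both times, adjusted p = 0.954, edgeR). Without the male crush 3 D pool the list's median was 0.49 with 23 of 32 members above 0, without the female glaucoma 3 D pool it was 0.43 with 26 above 0, and without the male glaucoma 3 D pool it was 2.

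Promoters are shown for the 4 members of this list with the largest 3 D difference among those whose groups did not overlap. Many genes of mitosis carry a CHR element, TTTGAA, and CCAAT boxes just upstream of the start, through which the DREAM complex and NF-Y act. RefSeq sequences (GRCm38.p6) were found for 27 of the 32 members. In the 250 bases before the start, and on either strand, CCAAT was present in 85.2% of the 27, against 34.5% of 27025 genes, and TTTGAA in 33.3% against 16.3%. The 120 bases before each start are printed 5′ to 3′ on the gene's strand, with matches to either motif in capitals. They lie at chr14:46760421-46760540 (plus strand) for Cdkn3, chr2:119618178-119618297 (plus) for Nusap1, chr2:164769809-164769928 (plus) for Ube2c and chr11:117849117-117849236 (plus) for Birc5.
Cdkn3: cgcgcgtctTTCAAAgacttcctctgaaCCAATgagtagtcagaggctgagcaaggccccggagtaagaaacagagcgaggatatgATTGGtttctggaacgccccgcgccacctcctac
Nusap1: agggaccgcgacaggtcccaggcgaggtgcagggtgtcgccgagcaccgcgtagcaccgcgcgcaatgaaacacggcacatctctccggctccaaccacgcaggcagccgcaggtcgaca
Ube2c: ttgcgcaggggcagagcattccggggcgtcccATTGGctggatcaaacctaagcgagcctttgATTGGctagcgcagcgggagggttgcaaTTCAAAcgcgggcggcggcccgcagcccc
Birc5: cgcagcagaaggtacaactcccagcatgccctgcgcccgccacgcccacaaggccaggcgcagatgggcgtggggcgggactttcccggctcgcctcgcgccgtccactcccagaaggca
Cdkn3 and Ube2c each held 1 TTTGAA and 2 CCAAT matches in the stretch shown, here read as TTCAAA and ATTGG where they lie on the other strand, and Nusap1 and Birc5 held neither. The log2 fold changes at 3 D were 1.44, 1.37, 1.36 and 1.34 in the order printed.

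Immediate early genes leaned the same way at 3 D. Of 18, 16 lay above 0 with a median of 0.66, and in 6 the crush pools stood above both glaucoma pools, against 12.4% of all genes. Without the female glaucoma 3 D pool the median was 0.32 with 12 above 0, and without the male one it was 1.23. Ccn1, a matricellular protein and target of YAP, was at 308.8 and 284 CPM after crush and 53.8 and 148.7 CPM in glaucoma (1.63 ± 0.46, adjusted p = 1, edgeR), and the phosphatase Dusp1 at 690.1 and 518.9 CPM against 122.4 and 334.8 CPM. At 2 W the list was mixed, with 11 of 18 above 0 and a median of 0.47. At an unadjusted p below 0.05, 5 were higher and 2 lower (3.07% and 3.48% of all genes). Without the female crush 2 W pool its median was -0.11. Ccn1 was then at 85.2 and 75.4 CPM after crush and 193.7 and 215.4 CPM in glaucoma, and Dusp1 at 137.9 and 156.8 CPM against 396.1 and 342.3 CPM. Dusp1 overlaps genes on both strands.

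Of 22 interferon response genes, 20 lay below 0 at 3 D, with a median of -0.41 and 0 at an unadjusted p below 0.05, and this rested on the female glaucoma 3 D pool. Cxcl10 was at 180.1 CPM in it and at 27.3 to 42.1 CPM in the other 3 D pools. Without it the median was -0.04, with 12 of 22 below 0. At 2 W, 18 of 22 lay above 0 with a median of 0.86, and 5 were higher and 0 lower at an unadjusted p below 0.05 (3.07% of all genes were higher). This rested on the male crush 2 W pool, without which the median was -0.26 and 9 of 22 lay above 0. In the change from 3 D to 2 W, 21 of 22 pointed toward crush, 6 at an unadjusted p below 0.05 (1.14% of all genes).

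**Figure D3:**
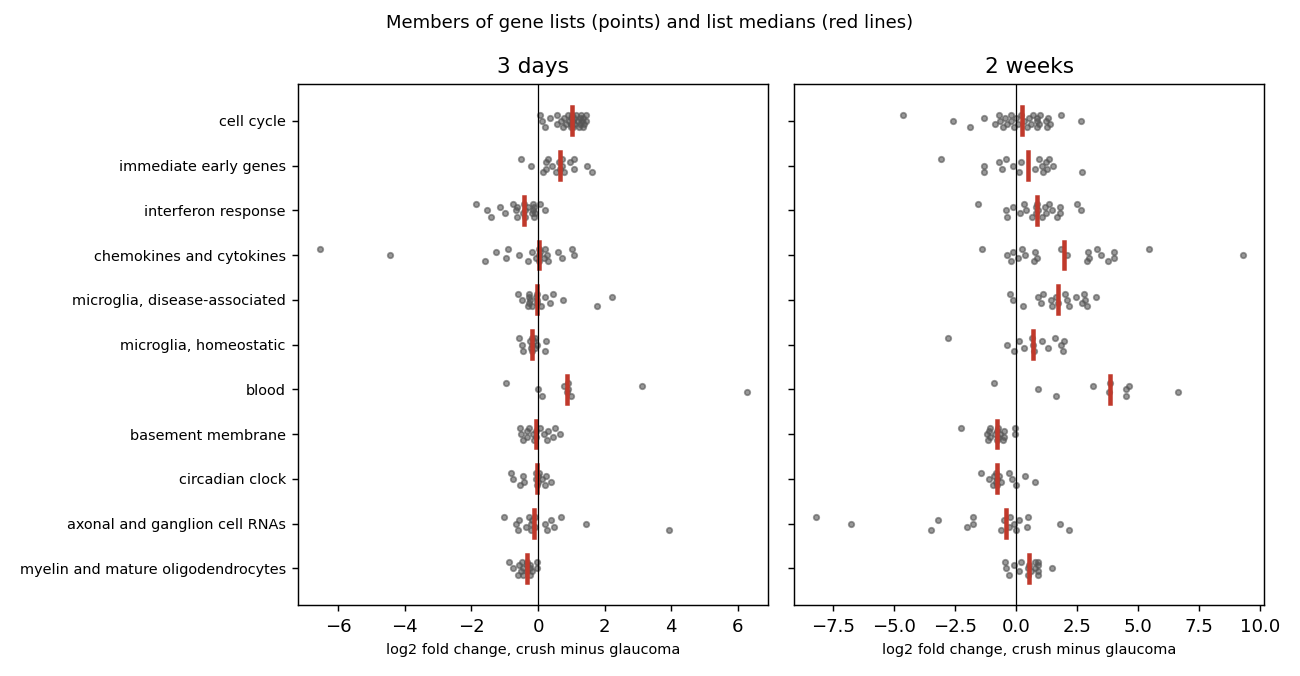
Log2 fold change of crush minus glaucoma at 3 D (left) and 2 W (right) for the members of 11 gene lists, each point a gene and each red line the list's median. The cell cycle list lies wholly above 0 at 3 D with a median of 1.02, and the disease-associated microglial list is centred at -0.04 at 3 D and at 1.71 at 2 W.

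The genes that follow were picked from the contrast over both times itself, mostly by unadjusted p. Keeping a side at both times thus follows in part from the choice. By edgeR, none but mt-Nd5 passed the adjusted test over the 4 libraries of each model. Timp1, the inhibitor of matrix metalloproteinases that reactive astrocytes make, was at 285.3 and 311.9 CPM in crush and 157.5 and 109.2 CPM in glaucoma at 3 D. At 2 W it was at 140.3 and 193.6 CPM against 81.1 and 84.8 CPM, and naïve nerve held 29.9 and 27.6 CPM. Crush was thus above glaucoma at each time, by 2.24-fold and 2.01-fold of the means (1.08 ± 0.24 over both times, adjusted p = 0.954 by edgeR and 0.0495 by DESeq2). Timp1 overlaps Syn1 on the opposite strand. Over all 8 libraries, 1.27% of genes had every crush pool above every glaucoma pool, and Timp1 was not among them because the crush 2 W pools overlapped the glaucoma 3 D pools.

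Kcnk2, the mechanosensitive potassium channel TREK-1, was lower in crush by DESeq2. It was at 6.32, 12.4, 8.91 and 6.97 CPM in the 4 crush pools and at 26.0, 34.4, 24.2 and 24.0 CPM in the 4 glaucoma pools, without overlap, where 1.44% of all genes were so separated on the lower side. The naïve pools held 34.5 and 15.2 CPM. The difference was -1.65 ± 0.30 (adjusted p = 0.954 by edgeR and 0.00163 by DESeq2). Kif13b, a kinesin, was at 94.6 and 27.4 CPM in crush and 143.7 and 90.7 CPM in glaucoma at 3 D, and at 24.1 and 16.2 CPM against 95.5 and 48.3 CPM at 2 W (-1.45 ± 0.28). The hedgehog receptor Ptch1 was between 25.1 and 48.9 CPM in crush and between 55.1 and 113 CPM in glaucoma, also without overlap. The axon guidance gene Sema5a was at 7.08 to 16.5 CPM against 18.1 to 35.6 CPM.

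On the higher side, Spp1, which encodes osteopontin, was at 116.1 and 710.9 CPM in crush and 130.7 and 109.2 CPM in glaucoma at 3 D, so its female pools did not differ. At 2 W it was at 1026 and 384.9 CPM against 114.2 and 84.9 CPM (2.83 ± 0.79, adjusted p = 0.746 by edgeR and 0.0152 by DESeq2). Atp6v0d2, a subunit of the lysosomal proton pump of macrophages and osteoclasts, was under 1 CPM in all glaucoma pools and between 0.73 and 24.5 CPM after crush, the highest in the male 2 W pool. Cd14, the coreceptor for lipopolysaccharide, was at 66.4 and 57.5 CPM in crush against 16.6 and 19.3 CPM in glaucoma at 2 W, and Cd300lb, a receptor of myeloid cells, at 9.33 and 19.3 CPM against 1.52 and 2.68 CPM. Junb, the AP-1 subunit, was at 91.7 and 158.2 CPM in crush against 38.9 and 44.6 CPM in glaucoma at 2 W. The cyclin-dependent kinase subunit Cks1b and the centromere motor Cenpe were above glaucoma in all 4 crush pools when compared within each time. Rps20, Ndufs4 and mt-Co3 on the higher side and Tsix, Muc4, Slc6a12, Ctnna2, Firre, Mcf2l and Prob1 on the lower side completed the leading 12 of each direction, none of them called.

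**Figure D4:**
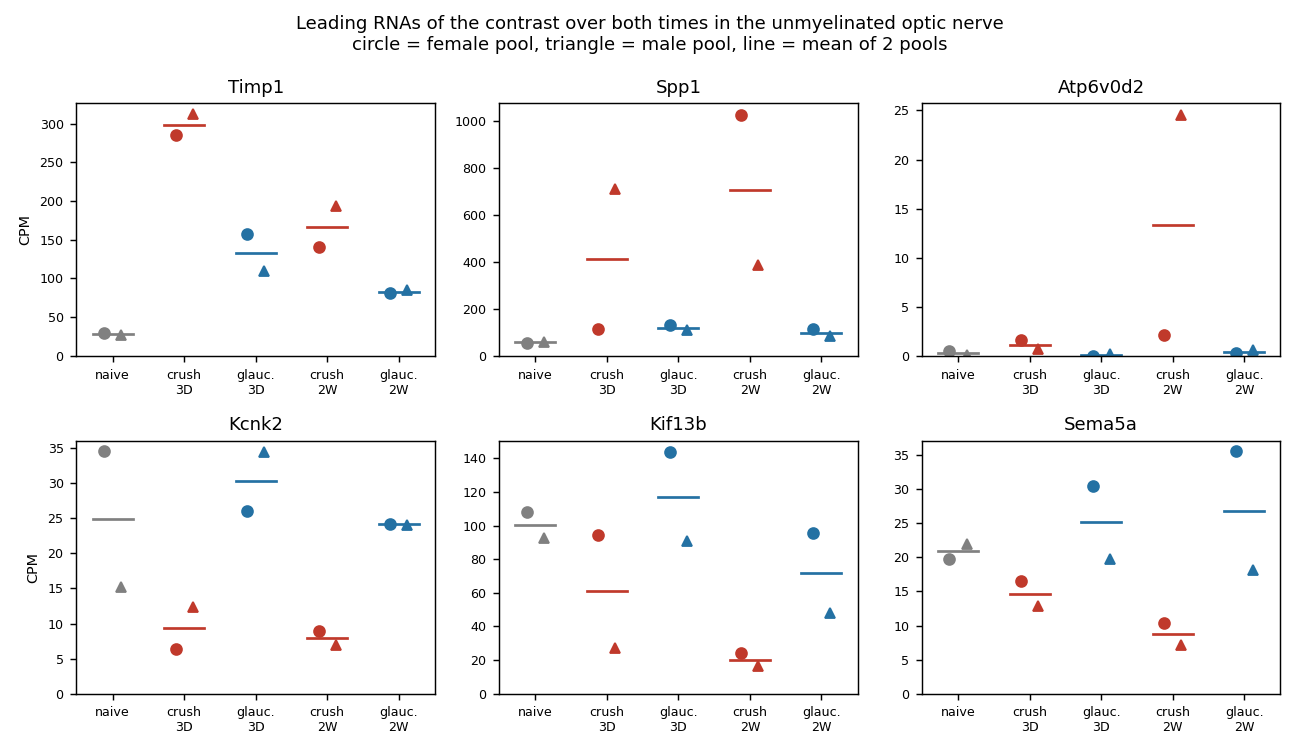
CPM on linear axes from 0 of 6 leading RNAs of the contrast over both times, with circles for female pools, triangles for male pools and a line at the mean of each group. Kcnk2 lies at 6.32 to 12.4 CPM in the crush pools and 24.0 to 34.4 CPM in the glaucoma pools, and Timp1 is higher in crush at each time.

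Among astrocyte genes, the difference of Gfap over both times was 0.09 ± 0.25 on the log2 scale, with a 95% interval from -0.48 to 0.65. Of 13 PAN-reactive genes, shared by reactive astrocytes of different injuries, 10 lay above 0 at 2 W with a median of 0.58. At an unadjusted p below 0.05, 4 were higher (3.07% of all genes). In 6 both crush pools lay above both glaucoma pools (17% of all genes), and in 2 below (19.9% of all genes). Of 15 A1 genes, known from astrocytes of inflamed tissue, 11 lay above 0 with a median of 0.56. In 5 of them both crush pools lay above both glaucoma pools (17% of all genes), and in 1 A1 gene below (19.9% of all genes). At an unadjusted p below 0.05, 2 A1 genes were higher and 1 lower (3.07% and 3.48% of all genes). In the A2 list, known from ischaemia, 5 of 13 were higher and 1 lower at that level, and the median was 0.12. DESeq2 called 2 of these 13 higher (0.517% of the genes it tested). The pentraxin Ptx3 was at 78.1 and 189 CPM in crush against 34.8 and 33.1 CPM in glaucoma (1.91 ± 0.46, adjusted p = 0.606 by edgeR and 0.0137 by DESeq2). The lipocalin Lcn2 was at 7.81 and 39.4 CPM against 4.08 and 4.15 CPM. Without the male crush 2 W pool, the log2 fold change was 1.17 for Ptx3 and 0.991 for Lcn2. Homeostatic astrocyte genes had a median of -0.22, with 2 of 18 lower at an unadjusted p below 0.05 (3.48% of all genes).

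Basement membrane genes leaned lower in crush at 2 W. All 17 had a negative log2 fold change, with a median of -0.78, and in 11 both crush pools lay below both glaucoma pools, against 19.9% of all genes. At an unadjusted p below 0.05, 3 were lower (3.48% of all genes). edgeR and DESeq2 each called 0 of them. Lama5, a laminin chain, was at 48.3 and 35.2 CPM against 105.5 and 86.2 CPM (-1.21 ± 0.39, adjusted p = 0.749, edgeR), and Col18a1, the source of endostatin, at 140.6 and 151.7 CPM against 337.1 and 323.5 CPM. Without the female glaucoma 2 W pool the median was -0.43, with 12 of 17 below 0, and without the male one it was -1.34. At 3 D the median was -0.07. Circadian clock genes had 13 of 15 members below 0 at 2 W with a median of -0.78, and -0.45 without the female glaucoma 2 W pool. Nr1d1, the repressor Rev-erb alpha, was at 235.1 and 176.7 CPM in crush against 398.2 and 563.7 CPM in glaucoma, where naïve nerve held 388.6 and 528 CPM. The hour at which tissue was taken was not given in the sources used here. Of 15 YAP and TAZ targets, 12 were below 0 at 2 W, with a median of -0.76, and without the female glaucoma 2 W pool the median was -0.24.

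Whether the gap between the models changed from 3 D to 2 W was tested as an interaction. It gave 0 calls by edgeR in either direction (0%), with 594 genes at an unadjusted p below 0.05 (1.14% toward crush and 1.5% toward glaucoma at 2 W), and 64 calls by DESeq2, 32 in each direction (0.142% each). Rph3a had the smallest edgeR value, a log2 change of -7.18 ± 0.78 with an adjusted p of 0.0902, and 1.72e-18 by DESeq2. Nefh followed at -7.87 ± 1.20 (adjusted p = 0.456, edgeR), with Vwa5b2 at -4.42 ± 0.72 and Tmem151b, which has no count in the crush 2 W pools. Kif5a changed by -5.69 ± 1.01 and missed the threshold by both tools, with an adjusted p of 0.689 by edgeR and 0.388 by DESeq2. Itgax and Cxcl1 led the other direction among the genes whose levels are given above. With single libraries left out, the change of Rph3a ran from -8.17 to -6.5 and that of Kif5a from -7.43 to -4.73.

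**Figure D5:**
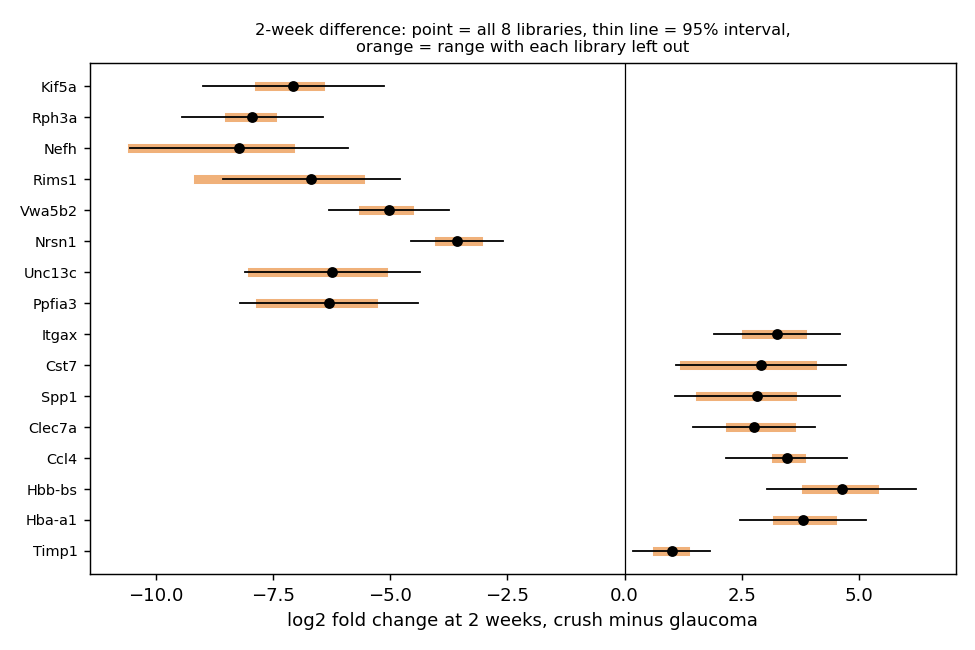
Log2 fold change of crush minus glaucoma at 2 W for 16 genes, with the point for all 8 libraries, a thin line for the 95% interval and an orange bar for the range when each of the 8 libraries is left out. No bar reaches 0, and Kif5a stays between -7.81 and -6.50 and Rph3a between -8.44 and -7.52.

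Other cell types differed between single pools. Surface epithelium genes summed to 212.2 CPM in the male glaucoma 2 W pool and 5.21 to 47.7 CPM in the other 7, and skeletal muscle genes to 9.26 to 54.7 CPM. Of 17 myelin and oligodendrocyte genes, 17 lay below 0 at 3 D (median -0.34) and 13 above 0 at 2 W (median 0.52), none at an unadjusted p below 0.05, and no member separated the groups at 3 D. Of 12 genes of oligodendrocyte precursors and new oligodendrocytes, 11 lay below 0 at 3 D (median -0.78). Of these, 1 was lower at an unadjusted p below 0.05 (0.311% of all genes). Their summed level at 3 D was 642.1 and 609.6 CPM in crush. It was 1308 and 678 CPM in the female and male glaucoma pools. Fibroblast genes of sclera and meninges had summed levels that overlapped between the models at both times, from 7202 to 30750 CPM. The part of these cell types in the gene differences was not tested. Without the male crush 2 W pool, the library that stood apart, the 2 W log2 fold change was -6.5 for Kif5a and -7.52 for Rph3a. It was then -7.13 for Nefh, -4.61 for Vwa5b2 and -5.37 for Ppfia3. For each of these 5 genes this was the smallest drop over the 8 fits that left out a library. Such a fit leaves a group of 1 library, which has no spread of its own.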

How the data were processed

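Per the study's methods and the submitters' processing notes, read pairs were aligned to GRCm38 with HISAT2 2.2.1 and quantified with StringTie 1.3.0. The authors deposited estimated counts per gene, not normalized, and a table of FPKM for each library, where the few values just below 0 (for which the unit is recorded as a score) were set to 0 here. No replicates were merged. From the 55487 genes of the deposited count table, those with a minimum count of 10 (edgeR filterByExpr) were tested. edgeR 4.0.16 fitted model, time and sex over both times, or the 4 groups and sex for single times, with TMM scaling. DESeq2 1.42.0, on rounded counts, and limma 3.58.1 on log2(FPKM + 1) were alternatives. p-values were adjusted over all genes tested. Each group has 2 pools of 2 mice, so p-values measure the spread between pools. The members and the 43 gene lists were chosen with earlier results of these data known, and not all lists are described. Genes named by rule were, over both times, the 12 called genes of largest change in each direction, and at single times and for the interaction the 4, with at least 1 CPM and an official symbol, filled by unadjusted p, then called list members, the first 4 of each list and genes the study names. Some genes that met the rule have no level given above. At 3 D these were Adnp, mt-Co3 and Zbtb22, higher in crush, and Cyp2f2, Slc47a1 and mt-Atp8, lower, none called by edgeR. At 2 W they were Hba-a2 and Hbb-bt, and for the interaction Cyp2f2 and mt-Atp8, toward crush and not called by edgeR. Some first list members and genes the study names are also left out. Other genes were chosen after their values were seen. Scripts were tested on simulated counts. Floors are 3 counts and cover counting error only.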

Additional observations from a re-analysis of the deposited data

How the results depend on the processing

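Counts of called genes depended on the test and filter more than single values did. Over both times, the count of 1 became 16 with DESeq2, 3 with no filter on low counts, 4 with all 12 UON libraries in 1 fit, 2 as the mean of both within-time contrasts, and 0 with a minimum count of 50, without the sex term, without mt- genes or with limma on log2(FPKM + 1). At 3 D, 0 became 20 with DESeq2 and 15 with no filter. At 2 W, 7 became 247 with DESeq2, 115 with no filter, 11 with DESeq2 size factors, 15 with limma, and 1 with a minimum count of 50 or without the sex term, and Rph3a was called under each of these. The interaction went from 0 to 64 with DESeq2, 45 with no filter and 1 with all 12 libraries. MON went from 0 to 707 with DESeq2 and 3 with no filter. For UON against MON, the planned DESeq2 fit is not reported, because genes were left unconverged and its calls moved with the arithmetic library used. Leaving out 1 library gave 1 to 5 calls over both times, 0 to 9 at 3 D, 16 to 320 at 2 W, 0 to 101 for the interaction, 0 to 91 in MON and 0 to 2 for UON against MON. These fits test more genes, since a group of 1 library loosens the filter, and the lone sample is assumed to vary like the other groups. The highest 2 W count came without the female crush 2 W pool. UON and MON come from the same mice, and with this pairing as a replicate block UON against MON gave 1 call, with the log2 difference of Rph3a at 0.0412. No paired analysis was possible by animal within UON because crush and glaucoma pools are different mice with no shared replicate number. Pools of one sex are matched by the sex term of the fit. Reversals were seen for Ccnb1 at 3 D (-0.00539 to 3.05 with 1 library left out) and Adnp (-0.00898 to 6.03), both lowest without the female glaucoma 3 D pool, and for the UON against MON difference of Kif5a (-2.18 to 1.08) and Rph3a (-2.42 to 1.88). The cause was not tested. Of 1824 gene values under alternatives, for 113 results, 1557 kept direction and call, 239 passed the threshold only there, 19 lost it and 9 reversed. Only a called result can lose the threshold. The 19 fell on mt-Nd5 over both times and on Rims1, Nrsn1, Kif5a, Nefh and Vwa5b2 at 2 W. Most of the 113 results were not called, so most of the 1557 values are uncalled genes that stayed uncalled.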
